A study of Drosophila melanogaster with 6 samples.

Results

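Complex III (ubiquinol-cytochrome c reductase), complex IV (cytochrome c oxidase) and complex V (ATP synthase) form the last steps of oxidative phosphorylation in the inner mitochondrial membrane. Complexes III and IV pass electrons from ubiquinol through cytochrome c to oxygen and pump protons, and complex V lets the protons back and makes ATP. In Drosophila these complexes are abundant in the indirect flight muscle. Many of their nuclear genes also have a duplicate, marked by an L (like) at the end of the symbol, that is known for expression in the testis. There the mitochondria of each spermatid fuse and form a body, the nebenkern, which later unfurls along the growing sperm tail.

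The genes described here were those whose current symbol begins with UQCR- (complex III), COX (complex IV) or ATPsyn (complex V) and that have an Affymetrix probe set, a group of oligonucleotides that together give 1 signal, paired with no other gene. Of 43 genes with such a symbol, 34 were measured, out of 11981 genes with a probe set of their own on the array. They were 4 genes of complex III, 7 of complex IV and 10 of complex V, called core genes below, and 13 L paralogs, of which 2 belong to complex III, 7 to complex IV and 4 to complex V. A gene with several probe sets is given by the brightest. COX6B and ATPsynG share their probe sets with another gene, and no probe set was paired with UQCR-C1, UQCR-C2, UQCR-6.4L, COX7CL or the mitochondrially encoded COX1, COX2 and COX3.

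METH samples held whole virgin males of the w1118 strain that had fed for 24 h on a diet with 0.6% (w/v) methamphetamine, and control samples held virgin males of the same strain and age after 24 h on the diet without the drug. All flies were 5 days old when they were put on the diets, whose base the labels call blue diet in both groups, and all carried the white mutation of the strain. Each sample pooled the RNA of 20 flies, and there were 3 METH and 3 control samples, each on its own Drosophila Genome 2.0 array. The design therefore holds 1 strain, 1 sex, 1 dose and 1 time, and in whole bodies fewer cells of a type cannot be told apart from less RNA per cell.

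Deposited signals are linear intensities. They were set on the log2 scale relative to an actin probe set (AFFX-Dros-ACTIN_M_r) of the same array, as in the methods of the study, and are given below as a percentage of it. This reference itself read 831, 868 and 700 on the METH arrays, against 1218, 922 and 984 on the control arrays, so that all METH arrays were below all control arrays. With it, the median log2 fold change (METH over control) of all 18769 probe sets was 0.24, and with the signals as deposited it was -0.13. Changes are therefore also given relative to the median of all probe sets, and with each array centred on its own median signal, which was 51.7 to 66.1 on METH arrays and 61.0 to 70.3 on control arrays.

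None of the 34 genes passed the test between diets, in which samples were not paired by replicate number. At an adjusted p of 0.05 over all probe sets, limma called 0 of 34, against 1.26% of all probe sets, and the smallest adjusted p was 0.381, for UQCR-14L. At an unadjusted p of 0.05, 4 genes were higher in METH flies, against 9.38% of all probe sets, and 0 were lower, against 2.12%. All 4 were L paralogs. The methods' t-test also called 0 of 34, at an unadjusted p below 0.008 and over 1.5-fold, against 1.58% of all probe sets, at a p of at most 0.005 and at least 1.5-fold, against 1.18%, and after Benjamini-Hochberg adjustment. On the other scales limma again called 0 of 34, where it called 2.64% of all probe sets with the signals as deposited, 1.6% with centring on the array median, 1.91% with centring on the 75th percentile and 2.26% with quantile normalization. The log2 fold changes of the members ran from -0.11 to 0.49 with the actin reference. Of the 34, 33 were above 0 with this reference and with centring on the array median, 20 with quantile normalization and 4 as deposited. Of all 18769 probe sets, 13988 were above 0 with the actin reference and 10633 with centring on the array median. With quantile normalization 10013 were, and as deposited 5750. The sign of the members thus moved with that of the whole array, and no sign common to them held over the scalings.

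**Figure D1:**
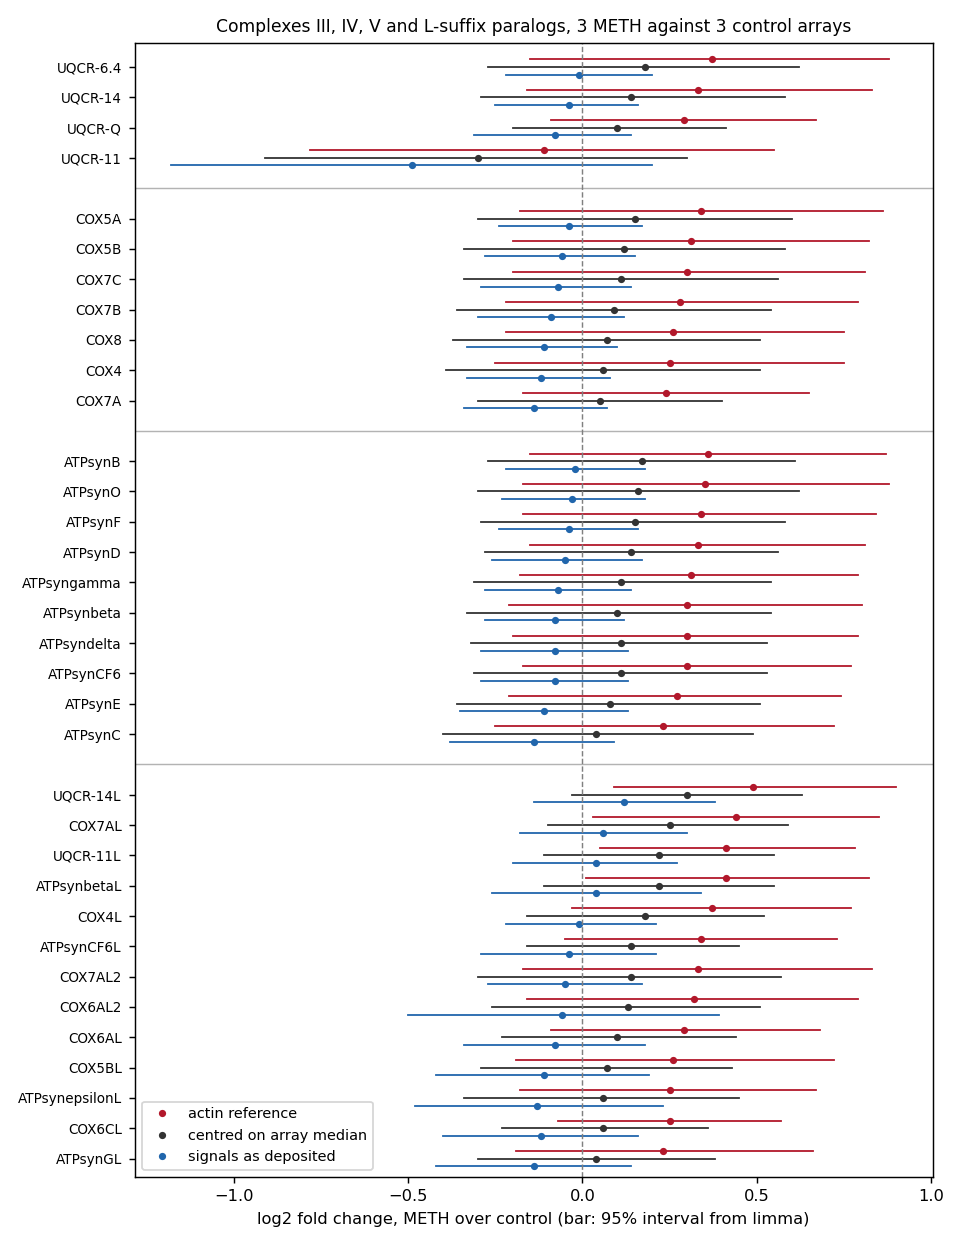
Log2 fold change, METH over control, of the 34 genes (points) with 95% intervals from limma (bars), for the actin reference, for centring on the array median and for the signals as deposited. From top to bottom the blocks are complex III, complex IV, complex V and the L paralogs. With the actin reference 33 of 34 points lie above 0, and with the signals as deposited 4 do. Of all 18769 probe sets, 13988 and 5750 do.

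The core genes of complex III comprise UQCR-14, UQCR-Q, UQCR-6.4 and UQCR-11, small subunits without a redox centre. Their median log2 fold change was 0.31 with the actin reference, 0.07 above that of all probe sets, and -0.06 with the signals as deposited. UQCR-6.4 had 896, 770 and 1056% of actin on the METH arrays, against 569, 832 and 717% on the control arrays. The groups overlapped, because METH 2 lay below control 2. Its log2 fold change was 0.37 (SE 0.24, adjusted p = 0.494), and -0.01 with the signals as deposited.

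UQCR-Q, the counterpart of mammalian UQCRQ, had 204, 201 and 220% of actin on the METH arrays, against 144, 197 and 173% on the control arrays. It was the only core gene with all METH arrays above all control arrays on this scale (log2 fold change 0.29, SE 0.17, adjusted p = 0.477). The groups overlapped with the signals as deposited (log2 fold change -0.08) and with centring on the array median (0.10). UQCR-11, the counterpart of the acidic hinge protein of mammalian complex III, was the exception of the class. Its probe set was dim, with signals of 28, 34 and 20.6 on the METH arrays, against 40.5, 41.3 and 32.5 on the control arrays, and it was the only one of the 34 with a log2 fold change below 0 on the actin scale, at -0.11 (SE 0.31, adjusted p = 0.876). With centring on the array median it was -0.30, with all METH arrays below all control arrays, and as deposited it was -0.49 with a 95% interval of -1.18 to 0.20.

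The 7 core genes of complex IV, COX4, COX5A, COX5B, COX7A, COX7B, COX7C and COX8, encode nuclear subunits that surround the catalytic core made in the mitochondrion. Their log2 fold changes lay between 0.24 and 0.34 with the actin reference (median 0.28, 0.04 above that of all probe sets) and between -0.14 and -0.04 with the signals as deposited (median -0.09). COX5A, whose loss is known in flies to stop cell cycling in the eye disc, had 990, 891 and 1219% of actin on the METH arrays, against 683, 946 and 822% on the control arrays. Only METH 2 fell within the control range. The log2 fold change was 0.34 (SE 0.24, adjusted p = 0.524), and -0.04 with the signals as deposited.

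COX4, the largest of the nuclear subunits, had 980, 871 and 1164% of actin on the METH arrays, against 745, 878 and 900% on the control arrays. METH 2 lay below 2 of the control arrays, and the log2 fold change was 0.25 (SE 0.23, adjusted p = 0.613). COX7A had signals of 2986, 2907 and 2851 on the METH arrays, against 3318, 3125 and 3171 on the control arrays. As deposited, COX7A was thus lower on every METH array (log2 fold change -0.14), while relative to actin it read 359, 335 and 407% on the METH arrays, against 272, 339 and 322% on the control arrays, with overlap and a log2 fold change of 0.24 (SE 0.19, adjusted p = 0.557). COX7B and COX7C have further probe sets. A second one of COX7B gave 0.31 (SE 0.23), beside 0.28 (SE 0.23) for the brightest, and another was near the bottom of the signal range, with an SE of 0.90. A dimmer probe set of COX7C gave 0.48 (SE 0.19, unadjusted p = 0.0233, adjusted p = 0.398), beside 0.30 (SE 0.23) for the brightest.

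The 10 core genes of complex V cover the catalytic head (ATPsynbeta), the rotor (ATPsyngamma, ATPsyndelta and ATPsynC, of which ATPsynC forms the ring in the membrane), the peripheral stalk that holds the head (ATPsynO, ATPsynB, ATPsynD and ATPsynCF6) and small membrane subunits (ATPsynE and ATPsynF). Their log2 fold changes lay between 0.23 and 0.36 with the actin reference (median 0.30, 0.06 above that of all probe sets) and between -0.14 and -0.02 with the signals as deposited (median -0.07). ATPsynbeta, which carries the catalytic sites, had 960, 873 and 1115% of actin on the METH arrays, against 688, 906 and 812% on the control arrays. The log2 fold change was 0.30 (SE 0.23, adjusted p = 0.557), with METH 2 inside the control range.

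As deposited, ATPsynbeta read 7980, 7584 and 7806 on the METH arrays, against 8375, 8353 and 7992 on the control arrays. All METH arrays were then lower, by a log2 fold change of -0.08. A second probe set of ATPsynbeta gave 0.03 (SE 0.22) with the actin reference and -0.35 as deposited. Within the class ATPsynB of the peripheral stalk had the highest fold change, 0.36 (SE 0.24, adjusted p = 0.499), and ATPsynC the lowest, 0.23 (SE 0.22, adjusted p = 0.628). ATPsynB had 902, 807 and 1090% of actin on the METH arrays, against 607, 848 and 734% on the control arrays. ATPsynC had 909, 712 and 931% on the METH arrays, against 650, 778 and 733% on the control arrays. In both genes METH 2 was within the control range or below 2 of its arrays, and the 2 intervals, -0.15 to 0.87 and -0.25 to 0.72, overlapped over most of their length.

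The core genes largely shared the order of their arrays. No member had all METH arrays below all control arrays with the actin reference, against 2.58% of all probe sets. On this scale METH 3 was the highest array for 20 of the 21 core genes and control 1 the lowest for 20, UQCR-11 being the exception in both. METH 3 had the lowest and control 1 the highest signal of the actin probe set itself. As deposited, METH 2 was instead the lowest array for 18 of 21 and METH 3 for 3, and the highest was control 1 for 12 and control 2 for 9. The class medians on the 3 METH arrays, relative to the mean of the control arrays, were -0.03, -0.12 and -0.09 for complex III, -0.07, -0.20 and -0.01 for complex IV and 0.00, -0.13 and -0.03 for complex V. On the control arrays they were 0.02, 0.07 and -0.04 for complex III, 0.05, -0.03 and -0.01 for complex IV and 0.04, 0.03 and -0.05 for complex V.

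**Figure D2:**
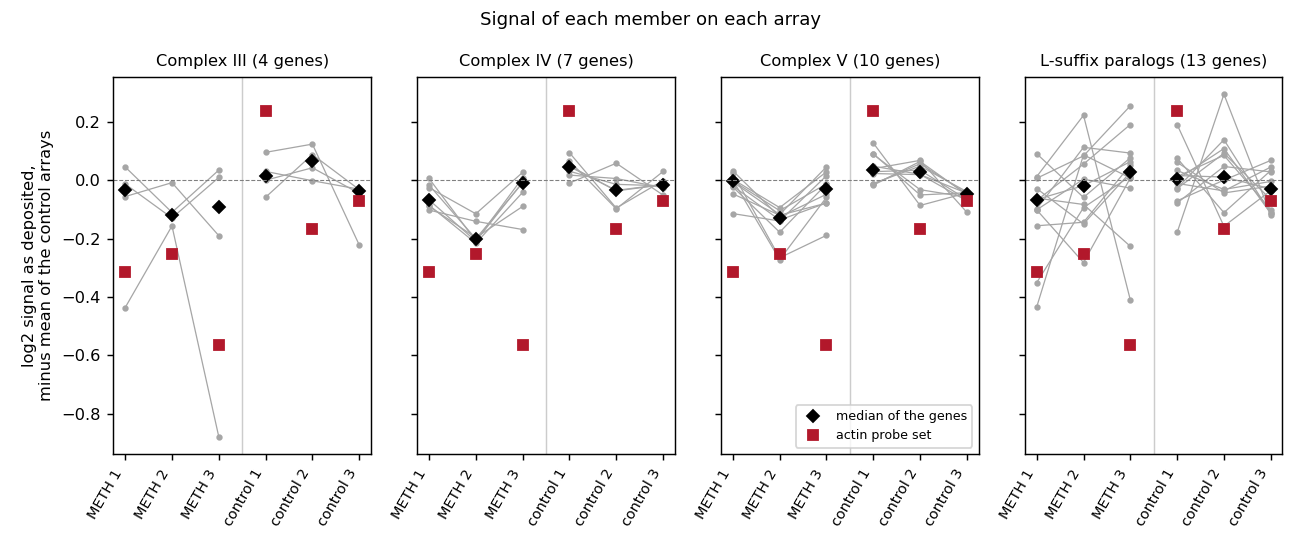
Log2 signal as deposited of each gene on each array, minus the mean of its control arrays (grey lines join the arrays of a diet), with the median of the class (black diamonds) and the actin probe set (red squares). The medians of complexes III, IV and V stay between -0.20 and 0.07 on all 6 arrays, with their lowest value on METH 2, whereas the actin probe set is lowest on METH 3.

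The precision for the core genes therefore depended on the scale. For the 20 core genes other than UQCR-11, the SE was 0.09 to 0.11 with the signals as deposited, and all 20 intervals lay inside a 1.5-fold change in either direction, with METH over control ratios of 0.77 to 1.15 at their ends. With centring on the array median 16 of the 20 did so. With the actin reference 0 of 20 did, because the intervals reached from -0.25 to 0.88 on the log2 scale. These probe sets were among the brightest of the arrays, with mean signals above the 95th percentile for 20 of 21 core genes and, in complex V, signals of 4902 to 8905 on METH arrays and 5576 to 8921 on control arrays. The highest signal of any probe set on an array was 10246 to 10677 in METH and 10375 to 10770 in control. Whether signals so near the top understate a difference was not tested.

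Relative to actin, the log2 fold changes of the 13 L paralogs lay between 0.23 and 0.49, with a median of 0.33, which is 0.08 above that of all probe sets. With the signals as deposited they ran from -0.14 to 0.12 (median -0.05), and 4 of 13 were above 0, against 5750 of all 18769 probe sets. Of the 7 members for which all METH arrays were above all control arrays with the actin reference, against 15.7% of all probe sets, 6 were L paralogs. As deposited, 0 members had all METH arrays above, against 2.61% of all probe sets, and 2, COX7A and ATPsynbeta, had all METH arrays below, against 13.6%. With centring on the array median 0 were above, against 7.33%, and UQCR-11 alone was below, against 5.7%.

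UQCR-14L, the paralog of UQCR-14, had the highest log2 fold change of the 34 with the actin reference. It had 85.8, 86.5 and 121% of actin on the METH arrays, against 58.8, 81.6 and 67.3% on the control arrays. METH 1 and METH 2 exceeded the highest control array by a few percent of actin and METH 3 by more. The log2 fold change was 0.49 (SE 0.19, unadjusted p = 0.0208, adjusted p = 0.381 by limma), or 0.25 above that of all probe sets. With centring on the array median it was 0.30 (95% interval -0.03 to 0.63), and as deposited 0.12 (-0.14 to 0.38).

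The other paralog of complex III, UQCR-11L, had 112, 96.8 and 132% of actin on the METH arrays, against 75, 92 and 87.7% on the control arrays (log2 fold change 0.41, SE 0.17, unadjusted p = 0.0306, adjusted p = 0.417). The groups did not overlap on this scale. Among the paralogs of complex IV, COX7AL had 158, 164 and 224% of actin on the METH arrays, against 112, 145 and 144% on the control arrays (log2 fold change 0.44, SE 0.19, unadjusted p = 0.0390, adjusted p = 0.425). Its control arrays were again all lower, and METH 3 stood highest. As deposited the log2 fold changes of UQCR-11L and COX7AL were 0.04 and 0.06.

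COX4L and COX6CL also had all METH arrays above the control arrays with the actin reference. COX4L had 220, 218 and 286% of actin on the METH arrays, against 159, 209 and 191% on the control arrays (log2 fold change 0.37, SE 0.19, adjusted p = 0.444). COX6CL had 80.0, 75.4 and 84.8% on the METH arrays, against 65.1, 67.5 and 68.8% on the control arrays (log2 fold change 0.25, SE 0.15, adjusted p = 0.471). As deposited both overlapped, with log2 fold changes of -0.01 and -0.12. The other paralogs of complex IV, COX5BL, COX6AL, COX6AL2 and COX7AL2, overlapped on all of these scales, with 0.26 to 0.33 relative to actin. COX7AL2 is bright, with signals of 5494 to 6210 on METH arrays and 5822 to 6499 on control arrays, above those of COX7A on every array. Its probe set is of a kind that can match several transcripts. Without COX7AL2 the median of the L paralogs was also 0.33. That the paralogs are restricted to the testis is background, and whole males cannot show it.

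Among the paralogs of complex V, ATPsynbetaL had 30.5, 33.8 and 41.3% of actin on the METH arrays, against 21.2, 29.4 and 28.9% on the control arrays. The groups did not overlap on this scale, METH 1 being just above control 2, and the log2 fold change was 0.41 (SE 0.19, unadjusted p = 0.0454, adjusted p = 0.432). As deposited it was 0.04, with overlap. ATPsynCF6L, ATPsynGL and ATPsynepsilonL gave 0.34, 0.23 and 0.25 relative to actin and -0.04, -0.14 and -0.13 as deposited, with overlap on both scales. ATPsynepsilonL was the dimmest of the L paralogs, with signals of 135 to 165 on METH arrays and 152 to 173 on control arrays.

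The ratio of an L paralog to the gene it resembles is taken within an array, so a reference common to the array cancels. In 12 such pairs, the mean log2 ratio on METH arrays minus that on control arrays ran from -0.05 to 0.53 (median 0.10) and was above 0 in 8. It was 0.16 for UQCR-14L over UQCR-14, with 0.02, 0.21 and 0.25 on the METH arrays, against -0.02, 0.09 and -0.07 on the control arrays, each relative to the control mean. For COX7AL over COX7A it was 0.20, with 0.03, 0.20 and 0.36 on the METH arrays, against -0.06, 0.00 and 0.06 on the control arrays. In neither pair were the diets apart, because METH 1 lay within the control range.

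COX4L over COX4 and ATPsynbetaL over ATPsynbeta gave 0.12 each. The highest difference, 0.53 for UQCR-11L over UQCR-11, rests on the dim probe set of UQCR-11. The next, 0.28 for ATPsynepsilonL over sun, the epsilon subunit, rests on signals of sun of 10 to 47.8 on METH arrays and 20.4 to 63 on control arrays. In 0 of the 12 pairs did the diets separate, the lowest p of a two-sided exact permutation test was 0.20, before any adjustment, and with 3 arrays against 3 no p below 0.1 can be reached. As medians over the classes, the L paralogs minus the core genes gave -0.05, 0.12 and 0.04 on the METH arrays, against -0.03, -0.01 and 0.01 on the control arrays, which is a difference within the range of the METH arrays.

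**Figure D3:**
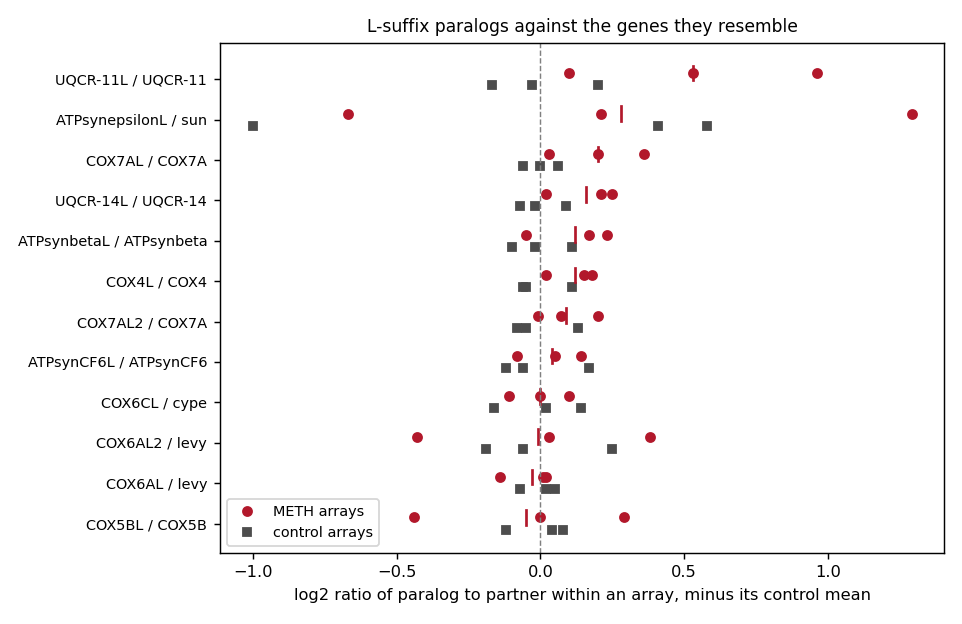
Log2 ratio of each L paralog to the gene it resembles on each METH (red circles) and control (grey squares) array, minus the mean of the control arrays. The red tick is the METH mean. METH and control arrays overlap in all 12 pairs, and the METH mean is above 0 in 8.

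Some subunits and factors of the same complexes carry other symbols. Of 15 such genes listed, 10 were measured. The cytochrome c genes Cyt-c-p and Cyt-c-d and the mitochondrially encoded CYTB, ATP6 and ATP8 were listed but not measured. Among the 10 measured limma called 0, with a median log2 fold change of 0.27 relative to actin (0.03 above that of all probe sets) and -0.10 as deposited. blw, the alpha subunit of complex V, gave 0.29 (SE 0.23, adjusted p = 0.564) and levy, the fly COX6A, 0.33 (SE 0.24, adjusted p = 0.537). knon, a paralog of ATPsynD that acts in the nebenkern, had 27.1, 34.8 and 20.7% of actin on the METH arrays, against 13.4, 26.9 and 16.8% on the control arrays. The groups overlapped, and the log2 fold change was 0.56 (SE 0.26, unadjusted p = 0.0474, adjusted p = 0.433). The probe sets that COX6B and ATPsynG share with other genes gave 0.34 (SE 0.23, adjusted p = 0.499) and 0.30 (SE 0.22, adjusted p = 0.529).

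The assembly genes of complex IV, Cox10, Cox11 and Cox17, which act in heme A synthesis or copper delivery, are written in lower case and were not members. Their log2 fold changes were 0.08, 0.17 and 0.29 relative to actin, with 0 of 3 called, and their median was 0.07 below that of all probe sets. Complex II, which feeds ubiquinol to complex III, had a median of 0.32 over 5 of 6 genes measured (-0.06 as deposited), again with 0 called. These genes include the L paralogs SdhAL (0.41, SE 0.21) and SdhBL (0.16, SE 0.16), and SdhA was not measured.

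The tissues in which these genes are abundant were followed by marker lists. The 20 measured of 25 late spermatogenesis markers had a median log2 fold change of 0.41 relative to actin, 0.17 above that of all probe sets. As deposited it was 0.04, and 0 passed limma's adjusted test on either scale. Relative to actin, 8 of the 20 had all METH arrays above all control arrays, against 15.7% of all probe sets. At an unadjusted p of 0.05 by limma 5 were higher, against 9.38%, so neither trait was particular to the L paralogs. The summed signals of these markers as deposited were 57768 to 66657 on METH arrays and 57605 to 64672 on control arrays. Relative to actin the sums were 6948 to 9041% on METH arrays and 4731 to 7012% on control arrays. The dimmest marker, dj, read 52.8 to 103 on METH arrays and 76.1 to 122 on control arrays as deposited. The L paralogs minus these markers, as class medians, gave -0.02, -0.18 and -0.02 on the METH arrays, against 0.09, -0.10 and 0.00 on the control arrays.

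The 13 measured of 16 flight muscle markers had a median of 0.10 relative to actin, 0.14 below that of all probe sets, and -0.28 as deposited. With the signals as deposited 1 of them, Act88F, passed limma's adjusted test as lower, as did 381 of all 18769 probe sets. Act88F, the actin of the flight muscle, is named because of its value. Its log2 fold change was -0.65 (SE 0.15, adjusted p = 0.0499 by limma) as deposited and -0.27 (SE 0.22, adjusted p = 0.561) relative to the actin probe set. The summed signals of the flight muscle markers as deposited were 35808 to 41382 on METH arrays and 39686 to 47666 on control arrays. Relative to actin the sums were 4187 to 5116% on METH arrays and 3915 to 4578% on control arrays, so the direction depended on the scale. The core genes minus these markers gave 0.04, 0.07 and 0.35 on the METH arrays, against -0.17, 0.06 and 0.11 on the control arrays. The part of either tissue in the values of the respiratory genes was not tested.

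**Figure D4:**
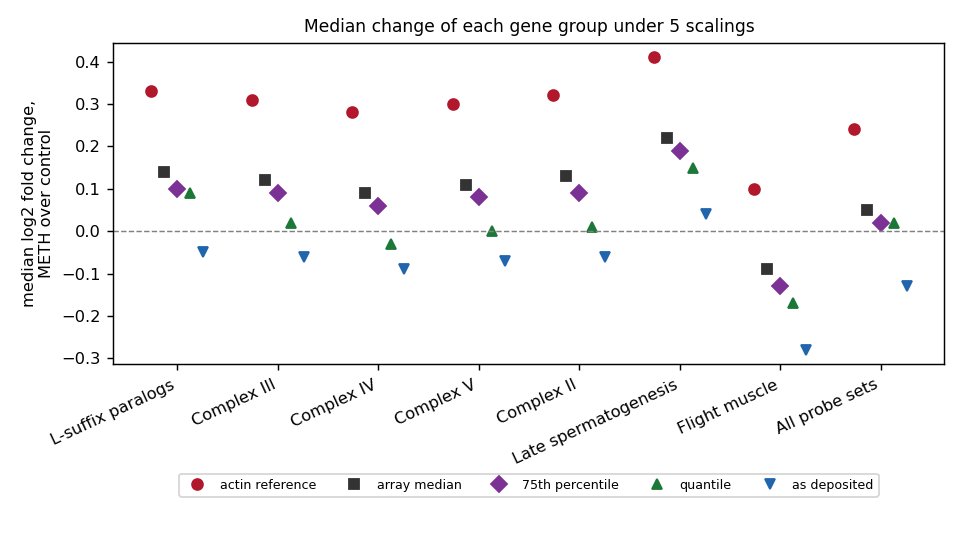
Median log2 fold change, METH over control, of each gene group under 5 scalings of the arrays. Relative to actin the medians of the L paralogs and of complexes III, IV and V are 0.28 to 0.33, with the signals as deposited they are -0.09 to -0.05, and all probe sets shift likewise, at 0.24 and -0.13.

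The order of the classes was narrow beside these shifts. With centring on the array median, the medians were 0.12 for complex III, 0.09 for complex IV, 0.11 for complex V and 0.14 for the L paralogs, and 0.05 for all probe sets. Quantile normalization gave 0.02, -0.03, 0.00 and 0.09 in the same order, and 0.02 for all probe sets. Relative to actin, 3 of 4, 6 of 7, 9 of 10 and 12 of 13 genes were above the median of all probe sets. The counts were the same as deposited and with both centrings, because these scalings shift each array as a whole. On these scales 30 of the 34 were above that median, whereas with quantile normalization 14 were. Within the METH arrays the class medians spread by an SD of 0.17 to 0.25 relative to actin.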

How the data were processed

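RNA was measured on 3 METH and 3 control arrays, grouped by the diet that the labels give. The authors made the signals with GCOS 1.4 and deposited them as linear intensities, neither logged nor divided by actin. No detection calls were used. With R 4.3.3 and limma 3.58.1, log2 signals minus the log2 actin signal of the array were fitted for 18769 probe sets, after 183 AFFX probe sets were left out, with lmFit and eBayes (trend of the spread on the level). Benjamini-Hochberg adjustment of the two-sided p values ran over all probe sets, at a threshold of 0.05. The study's SAM was not rerun.

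Of the probe sets, 13646 were paired with 1 gene, 402 with several and 4721 with none, by the annotation of the platform, and gene identifiers gave 13543 of them a current symbol. All 34 genes that met the symbol rule are reported, with the brightest probe set per gene. The genes given with values on each array were chosen for their role, their position in their class or a low unadjusted p by limma. The last applies to UQCR-14L, UQCR-11L, COX7AL and ATPsynbetaL, and to knon among the genes under other symbols. Members and lists were chosen with earlier results of these data known. No filter on dim signals was set. The number of arrays limits the precision. Medians over a class carry no test. The fit was tested in 5 runs on simulated data with 200 changed probe sets, drawn from all levels of signal. It recovered 41.4% of log2 changes of 1 and 65.8% of log2 changes of 2, with 9.8 false calls per run. The simulated probe sets varied independently, with no shift shared by an array, so these rates need not hold for the real arrays. Plots were drawn with matplotlib 3.10.9.

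Alternatives comprised 4 other scalings (as deposited, array median, 75th percentile, quantile), removal of probe sets under the 40th percentile of signal, flooring at the 20th, limma with no trend or with a robust prior, removal of probe sets that can match several transcripts, averaging the probe sets of a gene, a block for the replicate number, removal of each array, the methods' t-test at 1.5-fold with the p of the study's results text (0.008), a threshold of 0.10 and, chosen after seeing the data, the t-test at the p of its methods text (0.005) and the L paralogs without COX7AL2.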

Additional observations from a re-analysis of the deposited data

How the results depend on the processing

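With the replicate number as a block, limma called 1 of the 34 genes and 1 of the 13 L paralogs, in both cases UQCR-14L (adjusted p = 0.0374), beside 1293 probe sets in all, against 236 without the block. Same-numbered METH and control arrays correlated in their deviations from the group means at 0.022, 0.041 and 0.064. METH 2 and METH 3 correlated best with the control array of the same number, and METH 1 with control 2 (0.039). Differently numbered arrays ran from -0.078 to 0.039. A shift of a whole array does not enter these correlations, so they cannot settle whether the numbers pair the samples. The main fit used no block. With probe sets that can match several transcripts left out, 8 of the 34 genes had no value and 0 of the other 26 were called. Under every other alternative run, 0 of 34 were called. Over these alternatives, the one with 26 genes included, limma and the t-test gave a smallest adjusted p of 0.195 (without control 2) to 0.857 (without control 1). The number of probe sets called over the whole array was 495 as deposited, 358 with centring on the 75th percentile, 425 with quantile normalization and 24 without the trend. Without each array in turn the counts of calls stayed at 0, and the medians relative to all probe sets ran from 0.02 to 0.14 for complex III, -0.02 to 0.17 for complex IV, 0.01 to 0.18 for complex V, 0.04 to 0.16 for the L paralogs and -0.19 to 0.07 for the assembly genes. Relative to all probe sets, quantile normalization gave 0.00, -0.06 and -0.03 for complexes III, IV and V and 0.07 for the L paralogs. Of the values for single genes, 568 moved by less than 1 SD between replicates and 2 by more, ATPsynbeta (-0.22 from its second probe set alone) and COX7B (-0.18 as the mean of its probe sets). The mean of COX7B takes in its dim probe set near the bottom of the signal range, at -0.39 (SE 0.90) relative to actin. Why the probe sets of a gene differ was not tested. UQCR-11 is limited by its dim signal.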
